A study of Mus musculus with 70 samples.

Results

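Embryonic hypothalamus was compared with adult hypothalamus in 17 of the 70 libraries of a mouse brain series, chosen by their labelled region. The embryonic group, THy-PHy, held 3 libraries of the terminal (rostral) and peduncular (caudal) hypothalamus at E14.5. The adult group held 14 libraries at P56: 3 of the arcuate nucleus (ARH), 2 of the ventromedial nucleus (VMH), 4 of the dorsomedial nucleus (DMH), 2 of the paraventricular nucleus (PVH) and 3 of the lateral hypothalamic area (LHA). All mice were C57BL/6NTac, and no treatment is named. The adults were male, and the sex of the embryos is not given. RNA was taken from punches of frozen sections, made into stranded mRNA libraries and read as single reads. The adult libraries each pooled tissue from 3 or 4 mice and the embryonic libraries from 4 embryos, so a p-value here measures the spread between pools, not between animals. With 17 adult mice and 12 embryos in the whole study, the 14 adult pools must share mice and the 9 embryonic pools of all regions must share embryos, while the tests take the pools as independent. Stage and library batch coincided, so they cannot be told apart in any difference between the stages.

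The 17 libraries held between 14201960 and 19689276 estimated counts. Levels are given in TPM, a transcript share that is corrected for transcript length and sums to the same total in each library. Mitochondrial transcripts took 2.84%, 8.37% and 9.68% of TPM in embryonic libraries 1, 2 and 3, and from 5.55% to 10.3% in the adult libraries, so embryonic library 1 was the lowest of the 17. That library also differed most from its replicates across genes, with Pearson's r of log2 TPM of 0.939 with library 2 and 0.940 with library 3, against 0.970 between libraries 2 and 3. It held 307 genes more than 2-fold above both other embryonic libraries and 243 more than 2-fold below them, where library 2 held 53 and 45 and library 3 held 51 and 69. The genes farthest apart were mostly pseudogenes and predicted genes, which can share reads with related genes. Genes are not independent replicates, so these r values are a description.

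The hypothalamus forms in the ventral forebrain from a sheet of dividing neural progenitors around the third ventricle. Transcription factors such as Nkx2-1, Rax, Six3 and Six6 pattern this sheet, and others such as Otp, Sim1, Nr5a1 and Isl1 direct neurons toward the paraventricular, ventromedial and arcuate fates. In the adult, the same territory holds neurons that release peptides controlling feeding, body water, stress, growth and reproduction, among astrocytes, myelinating oligodendrocytes, microglia and the tanycytes of the ventricle wall. Midgestation is a time of neurogenesis, while most astrocytes and oligodendrocytes are made later.

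The labelled region was checked against 6 markers of hypothalamus within 1 stage, by setting THy-PHy against the mean of embryonic midbrain (M, 2 libraries) and embryonic hindbrain (H, 3 libraries). Nkx2-1, a factor required for the ventral hypothalamus, stood at 138, 115 and 71.8 TPM in the THy-PHy libraries and averaged 0.132 TPM in H and 1.11 TPM in M, which made a log2 difference of 6.71 ± 0.28 (SE, adjusted p = 5.71e-05, limma). Sim1, needed for the paraventricular and supraoptic neurons, stood at 11.2, 19.9 and 12.4 TPM, against 0.408 TPM in H and 1.31 TPM in M (log2 fold change 3.54 ± 0.32, adjusted p = 0.00163). Rax and Six6, factors of the ventral midline and eye field, were higher by log2 fold changes of 4.71 and 5.34, and both were called. Six3 and Otp were higher by 3.17 and 2.74 and were not called. Across all 16624 genes of this comparison, 58 were called higher in THy-PHy (0.349%) and 47 lower (0.283%). These counts were not stable. Without THy-PHy 2, THy-PHy 3, M 1 or M 2, 24, 33, 32 and 32 genes were called higher, and without THy-PHy 1, THy-PHy 2, THy-PHy 3, H 2 or M 2, 30, 19, 18, 30 and 23 were called lower, while without H 1 the counts were 81 and 110. They were 37 higher and 29 lower with the replicate number as a block, 33 and 14 with no filter on low values, and 80 and 91 with edgeR. Of 40 listed transcription factors of hypothalamic development, 23 were among the 58 genes called higher, and of 24 measured neuropeptide genes 5 were.

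Between the stages, 17692 genes reached at least 1 TPM in at least 2 of the 17 libraries. Each was tested as the embryonic mean minus the mean of the 5 adult region means on log2(TPM + 0.5), so a gene made in a single nucleus is weighed at 1 region in 5, and the fold of a gene below about 1 TPM is understated. Calls needed both a Benjamini-Hochberg adjusted p below 0.05 and more than 1 log2 unit of difference. In all, 2823 genes were called higher in the embryonic libraries (16%) and 3525 lower (19.9%), around a median log2 fold change of -0.03 over all genes. Without any test, 3795 genes (21.5%) had every embryonic library above all 14 adult libraries and 4270 (24.1%) had every one below. These genes are called separated here. On the log2 TPM scale the embryonic mean correlated across genes with the adult regions at r from 0.830 (LHA) to 0.846 (ARH), while the adult regions correlated with each other at 0.958 to 0.983.

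Among the genes with the largest called differences, Hbb-y, an embryonic globin, stood at 1892, 942 and 1699 TPM in the embryonic libraries and at most at 0.27 TPM in an adult library. The next protein-coding genes that were higher were Hba-x, another embryonic globin (9.17 on the log2 scale), Igfbpl1 (6.39), the proteoglycan gene Gpc2 (6.26) and Cdkn1c, the inhibitor of cyclin-dependent kinases that marks cells leaving the cycle (6.21). Cdkn1c reached 741, 652 and 605 TPM in the embryonic libraries, while the lowest, median and highest adult values were 3.45, 6.76 and 39 TPM. The patterning factor Dbx1 and the mitotic genes Top2a and Mki67 followed. The pseudogenes Gm44521 (6.63) and Mrip-ps (6.59) ranked between Hba-x and Igfbpl1, and both may share reads with related genes and are uncertain. On the lower side stood Agt, the angiotensinogen made by astrocytes, at 0.189, 0.113 and 0.11 TPM in the embryonic libraries and 217, 303 and 419.9 TPM (lowest, median, highest) in the adult ones, -8.94 ± 0.12 on the log2 scale (adjusted p = 3e-16). The astrocyte genes Itih3 (-8.05), Ntsr2 (-7.97), Gpr37l1 (-7.97), Gfap (-7.47) and Etnppl (-6.70) and the myelin genes Mobp (-8.79) and Mbp (-6.88) were 7 of the other 9 lower genes. The remaining genes were Rasgrf1, an exchange factor for Ras and Rac that acts at synapses (-6.87), and Tuba4a, a tubulin of mature axons (-6.51). Globin and cell cycle genes thus stood among the largest embryonic differences, and glial genes among the largest adult ones.

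**Figure D1:**
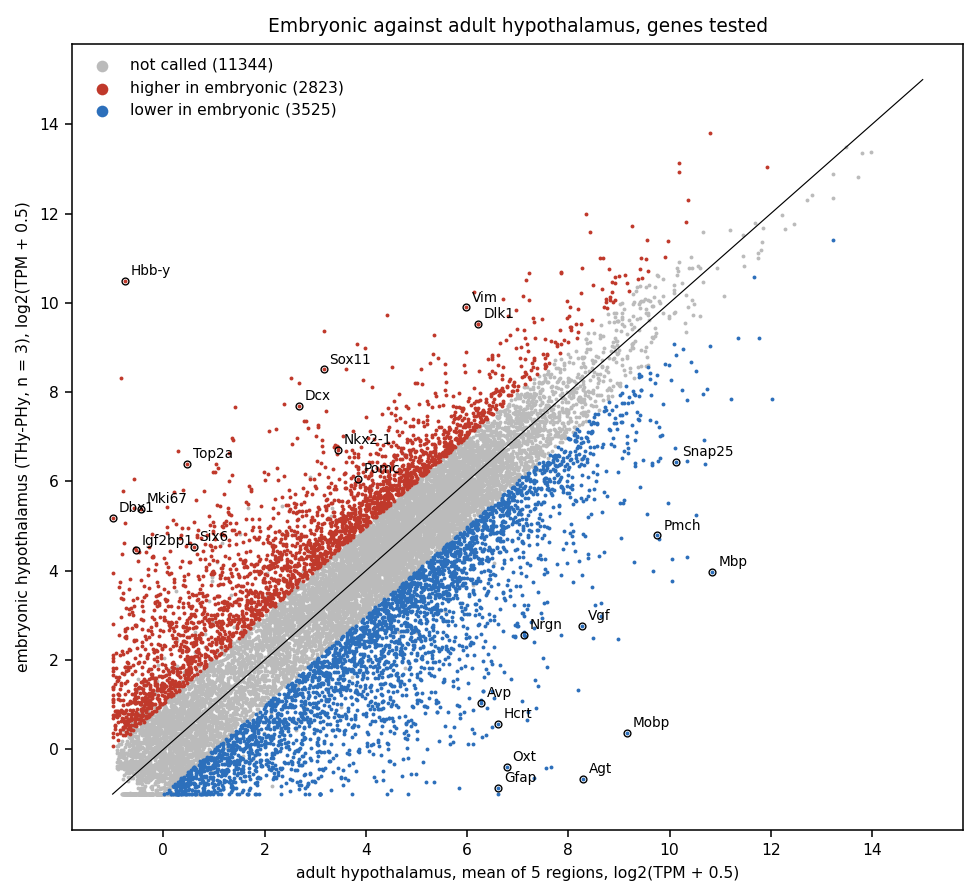
Log2(TPM + 0.5) of each gene tested, with the mean of the 5 adult region means on the x axis and the embryonic mean on the y axis; coloured points are genes called higher (2823) or lower (3525) in the embryonic libraries. Agt, Mobp and Gfap lie far below the diagonal, and Hbb-y, Top2a and Sox11 far above it.

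Described by gene list, the difference ran from genes of dividing cells at the embryonic end to genes of myelin at the adult end. The median log2 fold change was 3.67 for 32 proliferation genes, followed by markers of other tissue, at 3.38 for 13 genes of mesenchyme and meninges and 2.87 for 9 red cell genes. It was 2.70 for 40 hypothalamic transcription factors, 2.57 for 8 telencephalic genes, 2.47 for 21 genes of neurogenesis and 1.91 for 23 progenitor genes. It was 0.86 for 35 genes of axon guidance, -1.77 for 13 genes of prohormone processing, -1.79 for 31 neuropeptides, -2.17 for 30 synapse genes and -2.18 for 32 peptide and hormone receptors. The lowest medians were -3.39 for 14 astrocyte genes and -4.32 for 16 oligodendrocyte genes, while that of 14 microglial genes was -1.66. In punches, fewer cells of a type and less RNA per cell cannot be told apart.

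**Figure D2:**
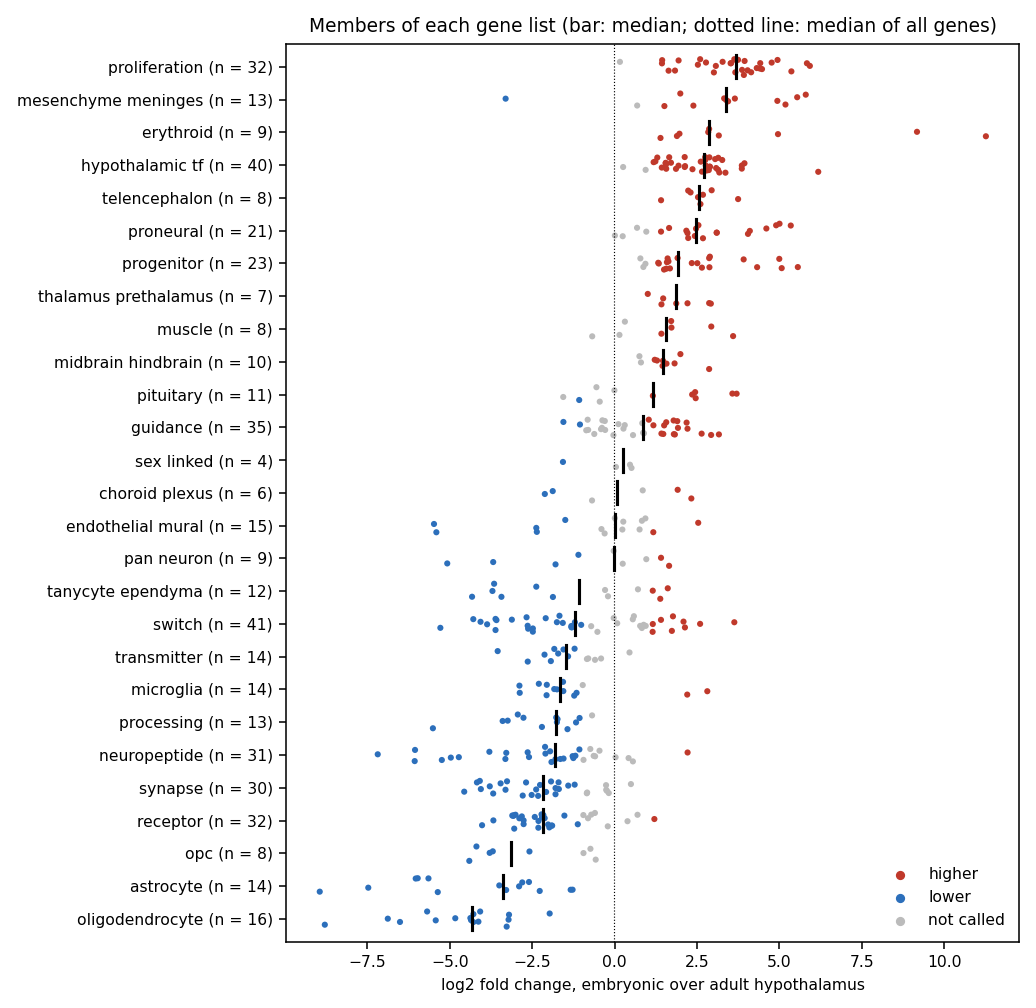
Log2 fold change, embryonic over adult hypothalamus, of every tested gene in each gene list, with 1 point per gene and a bar at the list's median. The medians run from 3.67 (proliferation) to -4.32 (oligodendrocyte), and the spread within the guidance list and the list of genes exchanged in maturation (switch) covers both signs.

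Genes of the cell cycle rose almost as a block: 31 of 32 were called higher in the embryonic libraries and separated, and the one left, Ccne1, was not called. Top2a, the topoisomerase of mitotic chromosomes, stood at 115, 80.8 and 62.8 TPM in the 3 embryonic libraries, and its lowest, median and highest adult values were 0.198, 0.9002 and 1.87 TPM. The log2 fold change was 5.92 ± 0.24 (SE over 3 embryonic and 14 adult libraries, adjusted p = 1.38e-11). Mki67, the antigen Ki-67 that coats mitotic chromosomes, stood at 42.9, 58.4 and 28.5 TPM against 0.0222, 0.235 and 0.524 TPM (5.83 ± 0.21, adjusted p = 4.63e-12). Cdk1, the kinase that drives entry into mitosis, stood at 59.8, 46.5 and 28 TPM against 0, 0.587 and 1.52 TPM (5.36 ± 0.33, adjusted p = 1.33e-09). In all 3 genes each embryonic library lay far above each adult one, and library 3 was the lowest of the embryonic libraries. Summed over the list, the level was 1497, 1443 and 952 TPM in embryonic libraries 1, 2 and 3, and 152, 173 and 185 TPM (lowest, median, highest) in the adult libraries. The most abundant member was Pcna, the sliding clamp of replication that also serves DNA repair, which held 42.8 TPM at the adult median, and its embryonic levels of 124, 132 and 100.1 TPM made a smaller difference (1.44 ± 0.08).

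Genes switched on for mitosis often carry CCAAT boxes and a cell cycle genes homology region in their promoters. The 3 genes above are shown because they had the largest log2 fold changes of the proliferation list. The 250 bases before the start of each are from RefSeq, build GRCm38.p6, all on the minus strand: chr11:99024190-99024439 for Top2a, chr7:135716380-135716629 for Mki67 and chr10:69352913-69353162 for Cdk1. Capitals mark the letters CCAAT (or ATTGG on the other strand) and TTTGAA (or TTCAAA).
Top2a: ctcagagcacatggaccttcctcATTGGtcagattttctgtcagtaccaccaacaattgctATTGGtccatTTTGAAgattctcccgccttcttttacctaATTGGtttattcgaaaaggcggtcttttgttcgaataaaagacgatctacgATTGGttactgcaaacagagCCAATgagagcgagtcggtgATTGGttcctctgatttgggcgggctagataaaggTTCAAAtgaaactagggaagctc
Mki67: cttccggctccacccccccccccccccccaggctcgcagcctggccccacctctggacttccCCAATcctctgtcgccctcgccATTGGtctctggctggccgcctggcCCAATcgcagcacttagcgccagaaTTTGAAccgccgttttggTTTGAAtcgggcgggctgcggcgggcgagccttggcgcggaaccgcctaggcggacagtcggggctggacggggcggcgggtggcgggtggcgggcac
Cdk1: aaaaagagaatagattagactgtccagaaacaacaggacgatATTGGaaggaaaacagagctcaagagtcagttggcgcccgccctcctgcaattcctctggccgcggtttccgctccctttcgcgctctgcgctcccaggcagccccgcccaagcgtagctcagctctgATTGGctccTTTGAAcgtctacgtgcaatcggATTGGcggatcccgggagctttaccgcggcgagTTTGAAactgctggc
Top2a held 6 CCAAT matches, and Mki67 and Cdk1 held 3 each, while the TTTGAA motif had 2 matches in each of the 3 promoters. The letters CCAAT were present in 33.8% of 32851 mouse promoters of this length, in 36.3% of the 11801 tested genes with a promoter, and in 22 of the 27 proliferation genes with one (81.5%). TTTGAA was present in 16%, 10.7% and 25.9% (7 of 27) of the same sets. These are matches of letters, and binding was not measured.

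Progenitor genes were higher in 20 of 23 cases, with 19 separated. Vim, the intermediate filament of radial glia, stood at 1386, 808 and 775 TPM, against 28.7, 60.6 and 156 TPM in the adult libraries (3.91 ± 0.20), and its adult levels were highest in ARH (mean 146 TPM). Nes, the nestin filament of neural stem cells, was higher by 4.32 ± 0.13. The largest differences of the list were in RNA-binding and chromatin proteins of fetal tissue: Igf2bp2 at 53.6, 57.9 and 50.6 TPM against 0.249, 0.823 and 1.02 TPM (5.56 ± 0.19, adjusted p = 1.8e-12), Hmga2 (5.07) and Igf2bp1 (4.99). Sox9, Hes5 and Prom1, which astrocytes or ependyma also express in the adult, were not called. The list summed to 3718, 2466 and 2050 TPM in embryonic libraries 1, 2 and 3, so library 1 carried the most progenitor transcripts.

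Genes of neurogenesis were higher in 17 of 21 measured cases, with 19 separated; Neurod4 did not reach the filter. Sox11, a factor of newborn neurons, stood at 348, 377 and 367 TPM against 5.48, 7.58 and 17.1 TPM in the adult libraries (5.34 ± 0.10, adjusted p = 4.24e-15). Dcx, the microtubule protein of migrating neurons, stood at 210.0, 234 and 177 TPM against 3.88, 6.33 and 7.82 TPM (5.00 ± 0.10), and Sox4 was higher by 4.90. Tubb3 stood at 1736, 1320.4 and 1551 TPM against 389, 494 and 606 TPM (1.65 ± 0.07). The 4 members Elavl2, Elavl4, Stmn2 and Gap43 were not called. Gap43, the growth cone protein and the most abundant member over the 17 libraries, stood at 641, 594 and 810.0 TPM against 456, 702 and 813 TPM (0.01, adjusted p = 0.938), so its ranges overlapped.

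Markers shared by neurons of all kinds did not move one way. Of 9 tested, Tubb3 and Elavl3 (1.41) were higher, 4 were lower, and Map2 (0.25), Elavl4 and Nefm were not called. The lower ones included Eno2, the neuronal enolase, at 34, 22.1 and 22.9 TPM against 705, 912 and 996 TPM (-5.08 ± 0.11), and the synaptic genes Snap25 and Syt1 (-1.79). The median of the list was -0.03, the value of all genes tested.

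Of 40 transcription factors of hypothalamic development, 38 were called higher in the embryonic libraries and 24 were separated. Their sum was 2051, 1892 and 1593 TPM in the embryonic libraries and 338, 406 and 726 TPM (lowest, median, highest) in the adult ones. Dbx1, a factor of ventricular zone progenitors, stood at 43.3, 54.2 and 19.2 TPM in the embryonic libraries and was listed at 0 in all 14 adult libraries. Nkx2-1 stood at 138, 115 and 71.8 TPM against 1.08, 10.5 and 43.4 TPM (3.26 ± 0.23, adjusted p = 8.59e-09), with adult means of 36.7 TPM in ARH and 22.2 TPM in VMH. Six6 stood at 19.8, 34 and 17.4 TPM against 0.0278, 0.337 and 12.7 TPM (3.94 ± 0.22), and Rax at 30.3, 22.5 and 8.62 TPM (3.86 ± 0.29). Both midline factors kept an adult level in ARH, with means of 9.76 TPM for Six6 and 16.8 TPM for Rax, and the Rax level there lay within the embryonic range. Sox14 (3.86), Vax1 (3.36), Onecut2 (3.18), Dlx2 (3.14) and Lhx1 (3.14) also had large differences. The most abundant in the embryonic libraries was Dlx1, a factor of GABA neurons, at 307, 238 and 216 TPM (2.61 ± 0.22).

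The embryonic libraries held factors of several nuclei at once. Nr5a1, which defines the ventromedial nucleus, stood at 22.7, 17.5 and 12.4 TPM in the embryonic libraries, and its adult means were 33.6 TPM in VMH, 18.2 TPM in ARH and 0.19 TPM in DMH (2.75 ± 0.21). Fezf1 followed it, at 50.3, 57.8 and 47.3 TPM against means of 45.3 TPM in VMH and 35.5 TPM in ARH (2.88 ± 0.19). Tbx3 and Bsx, factors of arcuate neurons, stood at 20.04, 24.9 and 15.1 TPM and 18.2, 20.3 and 12.7 TPM, against ARH means of 37.4 and 22 TPM. In these genes the embryonic libraries lay above most nuclei and near or below the nucleus that keeps the factor, so none of the 4 was separated. Otp, of neuroendocrine neurons, stood at 129, 170.0 and 148 TPM against 6.2, 19.8 and 92.4 TPM (2.76 ± 0.28), and every embryonic library was above every adult one. Sim1 stood at 11.2, 19.9 and 12.4 TPM against 0.875, 2.17 and 5.79 TPM (2.36 ± 0.25, adjusted p = 7.39e-07), with adult means highest in DMH (4.17 TPM) and PVH (3.96 TPM). Isl1, of arcuate and other GABA neurons, stood at 158, 168 and 169 TPM against 7.78, 17.7 and 60.1 TPM (2.78 ± 0.17). Lhx9 stood at 8.69, 10.1 and 20.7 TPM with a PVH mean of 17.4 TPM (1.56). Nr5a1, Tbx3, Bsx, Hmx3 and Nr0b1 were not called when the 14 adult libraries were taken as 1 group, which counts the difference between nuclei as spread.

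The factors that missed the call were Arnt2, the partner of Sim1, at 143, 115 and 109 TPM against 80.1, 107 and 115 TPM (0.26), and Prox1, at 30.5, 34.4 and 21.8 TPM against 9.02, 15.5 and 17.7 TPM (0.94). Prox1 was called with edgeR (1.05) and DESeq2 (1.06), without THy-PHy 3 (1.13) or VMH 2 (1.03) and in the contrast without PVH (1.00). Conversely Nr0b1 (1.18) was not called without THy-PHy 1 (0.97), with a pseudocount of 1 (0.86) or in the contrasts without DMH (0.95), PVH (0.94) or LHA (0.89), and Otx1 (1.24) was not called without THy-PHy 2 (0.99) or in the contrast without ARH (0.99).

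**Figure D3:**
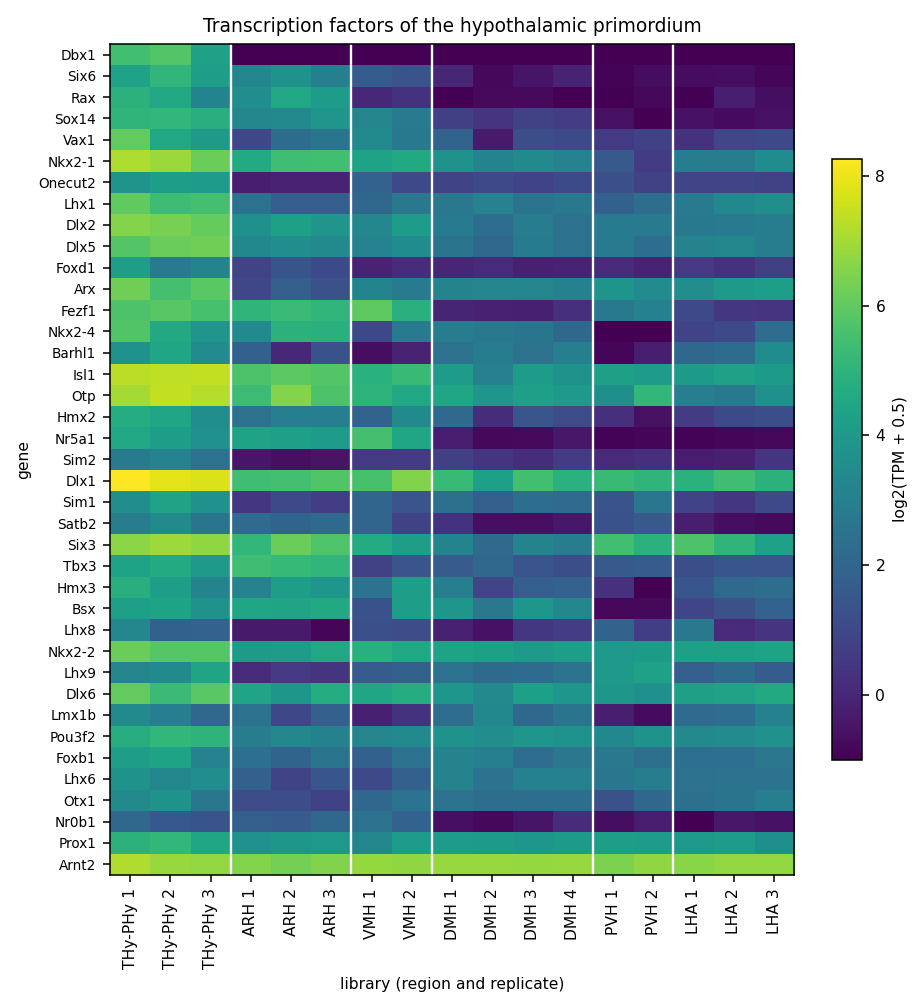
Heat map of transcription factors of hypothalamic development (rows, ordered by log2 fold change) in the 17 libraries (columns, with white lines between regions), coloured by log2(TPM + 0.5). Dbx1 is at 0 in all 14 adult libraries, while Rax, Nr5a1 and Tbx3 reach the embryonic range in ARH or VMH.

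Neuropeptide genes moved the other way: 22 of 31 fell in the embryonic libraries, Pomc was higher, 8 were not called, and 12 were separated below every adult library. Their sum was 434, 380 and 428 TPM in the embryonic libraries, and 1427, 4608 and 8338 TPM (lowest, median, highest) in the adult ones. Oxt, oxytocin, stood at 0, 0 and 1.24 TPM in the embryonic libraries against 1.11, 47.2 and 2075 TPM in the adult ones, with a PVH mean of 1264 TPM (-7.18 ± 0.82, adjusted p = 1.48e-06). Hcrt, the orexin precursor of lateral hypothalamic neurons, stood at 1.06, 0.948 and 0.928 TPM against 0.276, 335 and 1889.8 TPM, with means of 1446 TPM in LHA and 0.53 TPM in PVH (-6.05 ± 0.39). For both, embryonic levels were at or near 0 and adult levels depended on the nucleus. The lowest adult libraries of Hcrt overlapped the embryonic ones, and the lowest of Oxt, DMH 2 at 1.11 TPM, lay below THy-PHy 3. Tac2, neurokinin B, stood at 0, 0.386 and 0 TPM against 8.77, 54.5 and 75 TPM (-6.06 ± 0.21). Avp, vasopressin, stood at 1.63, 2.18 and 1.04 TPM against 0, 78.7 and 1904 TPM (-5.24 ± 1.06, adjusted p = 0.000425), and its lowest adult library, listed at 0, lay below the embryonic ones. All 4 precursors thus stayed under 3 TPM in each embryonic library.

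Other peptides were already present in the embryo. Pmch, the melanin-concentrating hormone precursor, stood at 18, 26.5 and 42.2 TPM against 16.3, 1317 and 5180.1 TPM, with adult means of 4539 TPM in LHA and 3525 TPM in VMH (-4.97 ± 0.46). Its embryonic level was higher than in embryonic hindbrain (0.766 TPM) and midbrain (0.386 TPM), a called log2 fold change of 4.88. Sst, somatostatin, stood at 124, 112 and 142 TPM against 257, 417 and 973 TPM (-1.92 ± 0.15), Gal, galanin, at 4.66, 5.25 and 16 TPM (-3.31), and Cartpt at 22.3, 10.3 and 12.5 TPM against 43, 132 and 334 TPM (-3.29). Trh, thyrotropin-releasing hormone, stood at 16.8, 21 and 22.3 TPM, against means of 255 TPM in VMH and 128 TPM in PVH (-1.79), and Ghrh at 7.36, 6.08 and 7.58 TPM, against 121 TPM in ARH (-1.65). Crh, corticotropin-releasing hormone, was low at both stages, at 0.662, 0.507 and 0.745 TPM against 1.02, 3.51 and 21.5 TPM (-2.11). Cck (-4.73), Tac1 (-3.80), Pdyn (-2.64), Nts (-2.60), Adcyap1 (-2.10), Ucn3 (-1.96), Grp (-1.55) and Penk (-1.19) fell as well.

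Pomc, the melanocortin precursor of arcuate neurons, was the exception. Its direction depended on whether the 5 adult regions were averaged as log2 values or in TPM. It stood at 104, 74.7 and 36.7 TPM in the embryonic libraries, at a mean of 551 TPM in ARH, and at means of 3.5 to 11.5 TPM in the other 4 nuclei. On the log2 scale it was higher in the embryo (2.21 ± 0.30), yet the mean of the 5 adult regions in TPM, 115.0, was above the embryonic mean of 71.7. Its arcuate neighbours differed from it in the embryo. Agrp, a melanocortin antagonist, stood at 1.98, 0.974 and 0.763 TPM, against 132 TPM in ARH, and its fall (-1.27) came from that nucleus, since the value was -0.04 without ARH. Npy, the peptide of the same neurons, was not called, at 21.2, 29.1 and 36.6 TPM against 14.8, 28.7 and 684 TPM with an ARH mean of 515 TPM (-0.74). Kiss1, of arcuate kisspeptin neurons, was not called either (-0.46), nor were Gnrh1, Qrfp, Pnoc (-0.64), Nms, Nmu (-0.94) and Npff. Nmu, below 0.2 TPM in each embryonic library, was called lower in 10 alternatives, among them edgeR (-2.72) and DESeq2 (-2.98). Pomc, Agrp, Ghrh, Npvf and Ucn3 lost their calls with the adult libraries as 1 group. Npvf (-1.25) lost its call in 8 alternatives, among them edgeR (-0.75), DESeq2 (-0.68), a pseudocount of 0.1 (-0.96), no THy-PHy 3 (-0.98) and the contrasts without DMH (-0.73) or VMH (-0.42). Vip (-1.07) was not called without PVH 1, THy-PHy 2 or THy-PHy 3, with a pseudocount of 1 (-0.72) or in the contrast without LHA (-0.79). Npy was called lower in the contrast without VMH (-1.10).

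**Figure D4:**
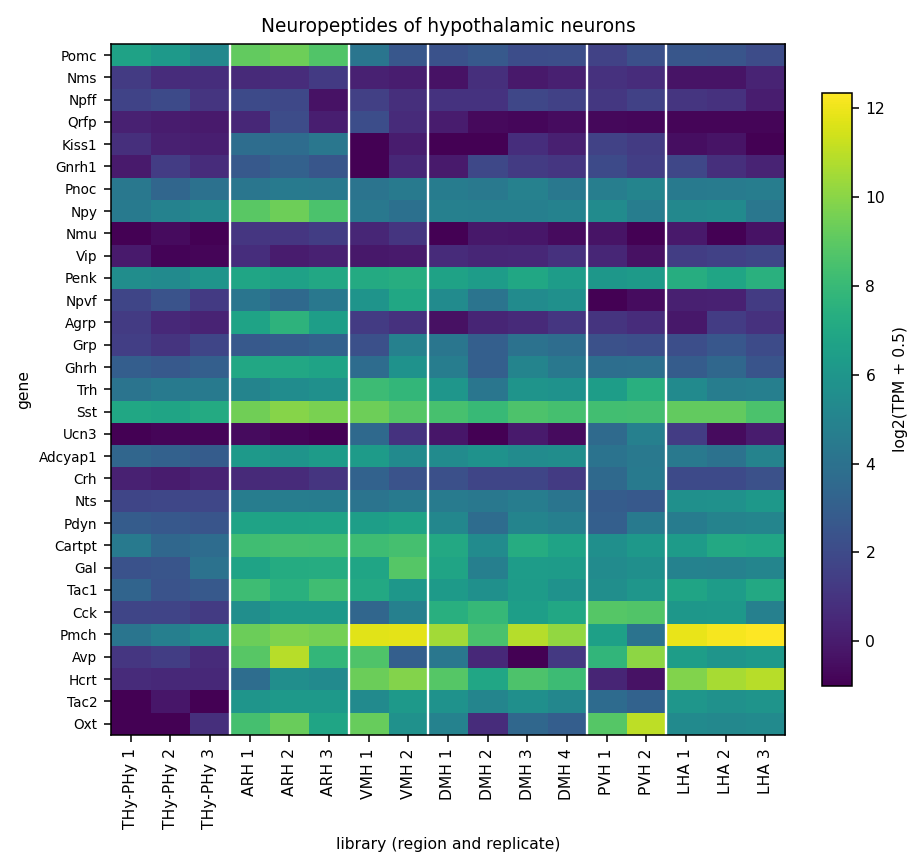
Heat map of neuropeptide precursors (rows, ordered by log2 fold change) in the 17 libraries (columns, with white lines between regions), coloured by log2(TPM + 0.5). Oxt, Hcrt and Tac2 are at most about 1 TPM in the embryonic libraries, while Pomc and Pmch are above 10 TPM in all 3.

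The machinery that packs and cuts peptide precursors fell with them. Of 13 genes, 12 were called lower and 12 were separated, and the list summed to 1445, 1508 and 1418 TPM in the embryonic libraries against 4630, 5549 and 6248 TPM (lowest, median, highest) in the adult ones. Vgf, a granule protein and peptide precursor, stood at 8.32, 3.27 and 8.83 TPM against 226, 323 and 382 TPM (-5.51 ± 0.20, adjusted p = 4.17e-12). Pcsk1, a convertase that cuts prohormones, stood at 3.01, 2.44 and 2.3 TPM against 16.3, 31.2 and 53.9 TPM (-3.40 ± 0.11), and Scg2, a granin of dense-core vesicles, at 63.9, 113 and 83.3 TPM against 464, 834 and 1053 TPM (-3.24 ± 0.14). Cpe, the carboxypeptidase that trims the cut peptides, was the most abundant, at 540.0, 588 and 455 TPM against 1183, 1806 and 2364 TPM (-1.77 ± 0.09). No adult library reached down to the embryonic levels of these 4 genes. Scg3 was not called (-0.68).

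Receptors for peptides and hormones were lower in 24 of 32 cases, with 22 separated below. Npy2r, the Y2 receptor of neuropeptide Y, stood at 0.656, 0.368 and 0.475 TPM against 4.89, 11.4 and 31.4 TPM (-3.68 ± 0.18, adjusted p = 1.03e-10), and Prlr, the prolactin receptor, fell too (-3.10). Ntrk2, the BDNF receptor and the most abundant adult member, stood at 35.7, 30.9 and 30.8 TPM against 195, 263 and 376 TPM (-3.01 ± 0.07). Igf1r, the receptor of insulin-like growth factors, was the one member called higher, at 47.1, 43.9 and 38.2 TPM against 14.7, 18.5 and 22.5 TPM (1.21 ± 0.08), and it was separated. Several receptors for metabolic signals missed the call. Lepr, the leptin receptor, stood at 5.85, 2.33 and 5.6 TPM against 1.38, 2.73 and 10.5 TPM and was not called (0.39), and neither were Insr (0.69), Mc4r (-0.81), Calcr (-0.21), Cckar, Sstr2 or Ghr; these were named after their values were seen.

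Synapse genes fell in 23 of 30 cases, with 25 separated below. Their sum was 1890, 2060 and 2063 TPM in the embryonic libraries and 6406, 8157 and 9288 TPM (lowest, median, highest) in the adult ones. Snap25, a SNARE protein of transmitter release, stood at 80.3, 86.4 and 93.8 TPM against 699.6, 1260.4 and 1451 TPM (-3.68 ± 0.09). Nrgn, a calmodulin-binding protein of dendritic spines, stood at 7.65, 3.6 and 5.64 TPM against 70.9, 133 and 252 TPM (-4.56 ± 0.21), and the vesicle proteins Vamp1 (-4.18) and Sv2b (-4.09) were close to it. The 7 members not called were Stx1a, Cplx2, Dlg4, Shank1, Shank2, Homer1 and Cbln1, of which several are scaffold proteins of the postsynaptic side.

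Genes that set the transmitter of a neuron were lower in 9 of 14 measured cases, with 7 separated; Slc6a5 did not reach the filter. Gad1, the enzyme that makes GABA, stood at 83, 69.1 and 61.6 TPM against 188, 303 and 569 TPM (-2.13 ± 0.13), so embryonic tissue already held it well above 10 TPM. Slc17a7, a vesicular glutamate transporter, stood at 0.304, 0.354 and 0.351 TPM in the embryonic libraries (-3.55 ± 0.45), and Hdc, the enzyme that makes histamine, fell by 2.64 on the log2 scale. Slc17a8, Slc18a3 and the monoamine genes Th, Ddc and Slc18a2 were not called.

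Several gene pairs are known to be exchanged as neurons mature, and 41 such genes were examined as a list. Of these, 22 were lower, 9 higher and 10 not called. Most channel and receptor genes of the list were lower in the embryonic libraries. Gabrd, a GABA-A receptor subunit found outside synapses, stood at 0.186, 0.0553 and 0.0542 TPM against 0.629, 14.8 and 38.5 TPM (-3.61 ± 0.36), and Gabra2 (-2.09) and Gabra3 (-1.75), subunits used early in development, also fell. Grin2a, the later NMDA receptor subunit, stood at 0.868, 1.19 and 0.674 TPM against 4.94, 8.76 and 11.3 TPM (-2.67 ± 0.12), and Grin2b, the earlier one, was not called (-0.52). Glra1, the adult glycine receptor subunit, fell (-4.07), and its fetal counterpart Glra2 was not called (-0.71). These differences between pair members were not tested against each other.

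Chloride transporters, sodium and potassium channels and neurofilaments of the same list mostly fell. Slc12a5, the chloride exporter KCC2 whose activity makes GABA inhibitory, stood at 52, 48.4 and 46 TPM against 236, 312 and 357 TPM (-2.62 ± 0.07). Slc12a2, the chloride importer NKCC1, also fell (-1.01), at 14.8, 11.8 and 11.5 TPM against 16.7, 24.6 and 55.7 TPM, and this call was lost in 10 alternatives, among them edgeR (-0.96), DESeq2 (-0.95) and those without LHA 1, PVH 1, VMH 1, THy-PHy 2 or THy-PHy 3. Scn1a (-3.12), Scn2a (-2.48) and Scn8a (-1.31) fell and the fetal sodium channel Scn3a was not called (0.88). The pacemaker channel Hcn2 (-4.29), the potassium channels Kcna1 (-3.87), Kcna2 (-3.61) and Kcnc1 (-2.48) and the heavy neurofilament Nefh (-3.58) fell too. Nefl fell (-1.21), though its call was lost without THy-PHy 2, and Nefm stood at 103, 67.4 and 259 TPM in the embryonic libraries, with library 3 far above the others, and was not called (-0.03). On the rising side, Tubb2b, a tubulin of growing neurites, stood at 4930.4, 3299.9 and 4108 TPM against 238, 316 and 429 TPM (3.63 ± 0.12), the most abundant member.

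Regulators within the same list held both sides of known exchanges. Ptbp1, the splicing repressor of progenitors, stood at 279, 262 and 215 TPM against 36.4, 54.5 and 95.5 TPM (2.13 ± 0.14), and Ptbp2, which replaces it in young neurons, was also higher (1.41). Among subunits of the BAF chromatin remodelling complex, Actl6a of the progenitor form stood at 76.9, 52.7 and 45.7 TPM (2.09 ± 0.16) and Actl6b of the neuronal form at 141, 108 and 129 TPM against 52.9, 65.7 and 75.3 TPM (0.94). Actl6b was not called, although it was called with edgeR (1.15), with DESeq2 (1.15) and without THy-PHy 2 (1.05). Dpf1, another neuronal subunit, was higher as well, at 155, 243 and 296 TPM (2.59 ± 0.17), as were Dpf3 (1.15) and Ss18 (1.16), while Phf10 (0.77) and Ss18l1 (0.58) were not called. The DNA methyltransferases Dnmt3a (1.74) and Dnmt3b (1.77) were higher as well. Embryonic tissue thus carried subunits of both the progenitor and the neuronal form at the same time.

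Axon guidance and migration genes were spread over both directions, with 16 of 35 higher, 2 lower and 17 not called. The share called higher was above the 16% of all genes tested, and 18 were separated above. Cxcr4, the receptor that guides migrating neurons, stood at 27, 26.3 and 18.6 TPM (3.16 ± 0.20), and Ephb2, an ephrin receptor, at 132, 142 and 103 TPM against 11.3, 15.6 and 20.8 TPM (2.93 ± 0.15). Epha3 was higher by 2.64. L1cam, an adhesion protein of axons and the most abundant member over the adult libraries, was not called (0.12). Unc5d, a netrin receptor, was lower (-1.55). Cntn2, an axonal adhesion protein also found at the edge of nodes of Ranvier, was lower too, at 33.4, 22 and 37.6 TPM against 38.7, 64.5 and 105 TPM (-1.05), and its call was lost without THy-PHy 2 (-0.83), in the contrast without LHA (-0.89), and with edgeR and DESeq2 (-0.99).

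Myelin genes had the list median farthest from 0, with all 16 lower and separated. Their sum was 137, 104 and 126 TPM in the embryonic libraries and 1228, 4901 and 16579 TPM (lowest, median, highest) in the adult ones. Mobp stood at 1.98, 0.583 and 0.307 TPM against 114, 614 and 2362 TPM (-8.79 ± 0.33), and Mbp, myelin basic protein, at 16.2, 12.3 and 17.4 TPM against 455, 1956 and 6931 TPM (-6.88 ± 0.24). The adult nuclei differed widely among themselves, from an ARH mean of 630.0 TPM of Mbp to an LHA mean of 5932 TPM. Mag, a myelin glycoprotein, fell by a similar amount (-6.51). Of the 8 precursor markers of the lineage, with a median of -3.14, 7 were below each adult library and 5 were called lower, among them Bcas1 (-4.41), Gpr17 (-4.19) and Neu4, which was listed at 0 in all 3 embryonic libraries and stood at 4.25, 6.52 and 8.81 TPM in the adult ones. Pdgfra (-0.94), Cspg4 and Olig2 (-0.73) were not called, with Olig2 at 24.7, 18.5 and 10.5 TPM in the embryonic libraries.

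Astrocyte genes were lower and separated in all 14 cases, with a sum of 486, 407 and 381 TPM in the embryonic libraries and of 3784, 4865 and 5436 TPM (lowest, median, highest) in the adult ones. Gfap, the astrocyte filament, stood at 0.0437, 0.117 and 0 TPM against 55.3, 90.1 and 203 TPM (-7.47 ± 0.20), and Aldoc, the most abundant adult member, at 29.4, 17.1 and 14.6 TPM against 1044, 1307 and 1570.2 TPM (-6.03 ± 0.14). Aqp4, the water channel of astrocyte end-feet, fell by 5.36 on the log2 scale.

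Genes of tanycytes and ependyma, which line the ventricle, moved apart. Of 12 tested, 3 were higher, 6 lower and 3 not called, and 2 were separated below. The shares over all genes tested were 16% higher, 19.9% lower and 24.1% separated below, and the list was not tested against them. The 3 that were higher, Gpr50, Col23a1 and Crym, are tanycyte genes. Gpr50 stood at 23.5, 31.7 and 22.2 TPM against an ARH mean of 62.1 TPM (1.61), Col23a1 at 11.4, 11 and 11.6 TPM against 59.9 TPM (1.38) and Crym at 14.8, 6.8 and 8.27 TPM against 27.7 TPM (1.16). In each the ARH mean, from the nucleus beside the tanycytes, was above the embryonic libraries, and for Col23a1 the mean of the 5 adult regions in TPM (13.7) was above the embryonic mean (11.3). All 3 calls were lost with the adult libraries as 1 group, and that of Crym in 7 other alternatives, among them those without THy-PHy 1, THy-PHy 3 or LHA 3 and the contrasts without VMH, DMH or PVH. The ciliated ependyma genes Ccdc153 (-4.32) and Dynlrb2 (-3.43) fell, as did Rarres2 (-3.71), the most abundant member of the list. Neither ciliated gene was separated, since adult LHA was near the embryonic level. LHA means were 0.959 TPM of Ccdc153 and 1.36 TPM of Dynlrb2, against embryonic means of 0.644 and 0.759 TPM. Foxj1 and Adm were among the members not called.

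Microglial genes fell in 11 of 14 cases, with 12 separated below. Siglech, a lectin of homeostatic microglia, stood at 0.664, 1.34 and 1.56 TPM against 7.67, 12 and 16.2 TPM (-2.89 ± 0.18), and the purine receptor P2ry12 fell with it (-2.06), while Aif1 was not called. Both members that rose mark macrophages at the borders of the brain: Pf4 stood at 13.7, 13.3 and 18.8 TPM against 0.631, 1.75 and 4.02 TPM (2.81 ± 0.28) and Mrc1 at 5.34, 5.03 and 7.54 TPM (2.20 ± 0.20), and both were separated above.

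Vessel genes were divided. Of 15, Cdh5 and Kcnj8 were higher, 5 were lower and 8 not called, around a median of 0.01. With edgeR 3 were higher and 5 lower. Over all genes tested 16% were higher and 19.9% lower, and the list was not tested against these shares. Cdh5, the junction cadherin of all endothelium, stood at 39.9, 69.3 and 49.7 TPM against 6.14, 8.76 and 11.1 TPM (2.54 ± 0.15). Ly6c1 (-5.48 ± 0.16), at 2.2, 0.749 and 1.5 TPM against 52.1, 85.8 and 119 TPM, and Slco1a4 (-5.41), a transporter of the blood-brain barrier, were far lower, and Flt1, Abcb1a and Slco1c1 fell as well. Cldn5, the claudin of the tight junctions, stood at 52, 26.9 and 29.5 TPM against 20.5, 39.6 and 50.1 TPM and was not called (0.01), and neither was the glucose transporter Slc2a1 (-0.30). The call of Kcnj8, of pericytes, was lost without THy-PHy 1 (1.17 with it).

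Markers of tissue beyond the hypothalamus moved with the embryonic stage, and their part in the differences above was not tested. All 9 measured red cell genes were higher, with 8 separated, and Ahsp was not in the table. Their sum was 10920, 6312 and 9504 TPM in the embryonic libraries and 406, 937 and 2690 TPM (lowest, median, highest) in the adult ones. Hba-a1, the adult alpha globin, stood at 3795, 2361 and 3321 TPM against 139, 305 and 810.0 TPM (3.16 ± 0.34), and Hbb-bh1, an embryonic globin, at 14.9, 12.2 and 18.5 TPM against 0 in all adult libraries. Genes of mesenchyme and meninges were higher in 11 of 13 cases, with 10 separated. Col3a1, a fibrillar collagen, stood at 394, 293 and 285 TPM against 1.75, 4.39 and 20.9 TPM (5.80 ± 0.23), and Col2a1 (5.54) and Postn (5.18) were close to it, with Postn at 49.7, 67.5 and 118 TPM. Dlk1, also made by hypothalamic neurons, was the most abundant in the embryo (676, 920.5 and 652 TPM, 3.32). Ptgds, the prostaglandin synthase of meninges and oligodendrocytes, was the one member lower (-3.31), and Prrx1 was not called. The list summed to 1804, 1752 and 1666 TPM in the embryonic libraries and 358, 914 and 5593 TPM (lowest, median, highest) in the adult ones, the highest from Ptgds, which reached 5291 TPM.

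Skeletal muscle, pituitary and choroid plexus genes were at lower levels and differed between libraries. Of 8 muscle genes, 5 were higher, and Acta1, Tnnt1 and Ttn were not called, though Tnnt1 was called lower without THy-PHy 3 (-1.28) and in the contrasts without ARH (-1.27) or VMH (-1.19). The muscle sum was 53.4, 14.49 and 98 TPM in embryonic libraries 1, 2 and 3 and 12.4, 32.4 and 224 TPM (lowest, median, highest) in the adult ones. Myl1 at 14.6, 0.888 and 23.9 TPM and Myh3 at 10.4, 0.235 and 10.3 TPM were present in libraries 1 and 3 and near 0 in library 2, and the count of 5 became 2 without THy-PHy 1 and 1 without THy-PHy 3. Of 11 pituitary genes, 6 were higher, Lhb was lower (-1.07, a call lost in 17 alternatives), and Prl, Gh, Tshb and Fshb were not called. Prl, Gh and Fshb were listed at 0 in the embryonic libraries. The pituitary sum was 28.9, 72.1 and 37.3 TPM in the embryonic libraries and 2.00, 5.74 and 133 TPM (lowest, median, highest) in the adult ones, the highest from ARH. Pitx1, a factor of the pituitary primordium, stood at 10.3, 13.8 and 7.61 TPM (3.57), and Pou1f1 was higher by 2.46. Cga, the common subunit of glycoprotein hormones, stood at 1.87, 17.3 and 12 TPM against an ARH mean of 78.9 TPM (2.44), and its mean of the 5 adult regions in TPM (15.8) was above the embryonic mean (10.4). The call of Cga was lost with the adult libraries as 1 group. Library 2 thus carried the most pituitary and the least muscle transcripts of the 3. Of 6 measured choroid plexus genes, Otx2 and Aqp1 (1.91) were higher, Clic6 (-2.12) and Kl (-1.88) were lower, and Ttr and Folr1 were not called. Kcne2 did not reach the filter. Among all genes tested 16% were higher and 19.9% lower, and this small list was not tested against these shares. Ttr, the defining marker, stood at 2.18, 1.39 and 3.09 TPM in the embryonic libraries, against a mean of 1157 TPM in embryonic hindbrain, so the defining marker was near 0 in the embryonic punches. Otx2 at 18.6, 28.8 and 8.99 TPM (2.33) is also a factor of the forebrain and midbrain.

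Markers of neighbouring brain territories were higher too. All 8 measured telencephalic genes were called higher, with a sum of 149, 188 and 133 TPM in the embryonic libraries against 8.17, 20.8 and 39.2 TPM (lowest, median, highest) in the adult ones. Emx1 did not reach the filter, and Neurod6 and Eomes are also in the list of neurogenesis. Among the largest differences were Emx2, at 26.6, 56.3 and 23.7 TPM (3.74), and Lhx2, at 63, 48.1 and 52.9 TPM (2.94), which diencephalon also expresses. All 7 thalamic and prethalamic genes were higher, with a sum of 296, 353 and 617 TPM against 45.0, 109 and 382 TPM (lowest, median, highest), and Pax6 among them is also a progenitor gene. Library 3 stood apart here, with Tcf7l2 at 80.9, 96.9 and 321 TPM, Gbx2 at 9.43, 4.45 and 29.1 TPM and Pou4f1 at 2.09, 2.4 and 13.5 TPM. Without THy-PHy 3 the count was 4 of 7, and Tcf7l2 went from 1.47 to 0.86 and was not called, nor was it called with the adult libraries as 1 group. Adult PVH also carried these genes, with means of 228 TPM of Tcf7l2 and 44.1 TPM of Gbx2. Of 10 measured midbrain and hindbrain genes 8 were higher, Gata3 by 2.87 and Pax2 by 2.00, and Pax7 and Gata2 were not called, though Gata2 was called with edgeR (1.01) and DESeq2 (1.02). Their sum of 45.7, 49.8 and 32.2 TPM lay far below the 322, 511 and 353 TPM of the 3 H libraries, 6 members, En2, Pax5, Pax8, Hoxb3 and Hoxd3 among them, did not reach the filter, and the count was 4 without THy-PHy 1 or without THy-PHy 2. Of 4 measured sex-linked genes, the Y-linked Ddx3y stood at 17.2, 13.2 and 5.84 TPM against 30.7, 33.4 and 40.9 TPM and was lower (-1.57), while Kdm5d, Uty and Eif2s3y (0.47) were not called. Xist and Tsix were not in the table used here, so nothing is known of them.

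To ask which stage differences differed by territory, the difference between the stages was set against the same difference in hindbrain, H against the nucleus of the solitary tract (NTS, 4 libraries), the dorsal vagal complex (DVC, 3) and the parabrachial nucleus (PB, 3). These 13 libraries are not among the 17 of hypothalamus, but they may share mice and embryos with them, and batch went with stage here too, so the 2 differences may not be independent. Across the 17692 genes the differences correlated at r = 0.86, and 6099 of the 6348 genes called in hypothalamus had the same sign in hindbrain, which describes genes and not replicates. Proliferation genes had medians of 3.67 in hypothalamus and 3.59 in hindbrain, progenitor genes 1.91 and 1.75, and synapse genes -2.17 and -1.97. In the test of the difference itself (18534 genes), 779 genes were called higher (4.2%) and 875 lower (4.72%) in the hypothalamic stage difference than in the hindbrain one. These counts leaned on 3 libraries: they were 454 higher without H 1, which had 9074581 estimated counts and 22.6% mitochondrial TPM, 512 higher without THy-PHy 1, and 1775 higher without H 3. With the replicate number as a block they were 735 higher and 828 lower.

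Hypothalamic factors and peptides were among the genes whose stage difference differed between the territories. Of the 40 transcription factors, 21 had a higher stage difference in hypothalamus and Lhx9 a lower one, with medians of 2.70 in hypothalamus and 1.17 in hindbrain. Nkx2-2, a factor of ventral progenitors, was higher in embryonic hypothalamus (1.65) and lower in embryonic hindbrain (-2.91), a difference of 4.57 ± 0.55 (adjusted p = 3.09e-06). Six6 differed by 3.69 ± 0.27, Rax by 3.51 ± 0.37, Vax1 by 3.44 ± 0.52 and Nkx2-1 by 2.95 ± 0.29. Of the 31 neuropeptides, 9 had a lower stage difference in hypothalamus, and Pomc and Vip a higher one. Oxt (-7.18 in hypothalamus, -0.23 in hindbrain) differed by -6.95 ± 1.06, Hcrt by -5.03 ± 0.54, Tac2 by -4.95 ± 0.39 and Avp by -4.68 ± 1.25, while Pomc differed by 3.46 in the other direction. Hcrt averaged 0.0759 TPM in H and at most 1.1 TPM in NTS, DVC or PB, and Avp 0 and at most 1.07 TPM. Both were thus near the floor in hindbrain at both stages, and their values mostly restate the hypothalamic difference. Of the 32 receptors 10 had a lower difference, while 7 of 15 transmitter genes and 6 of 11 pituitary genes had a higher one. With edgeR on the estimated counts, the calls of Oxt, Hcrt, Avp and Six6 in this test were lost.

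Myelin genes were lower in the embryo in both territories and by more in hindbrain, with medians of -6.07 there and -4.32 in hypothalamus, and 13 of 16 were called higher in the test of the difference, among them Mobp (2.54) and Mbp (2.10). Klk6, a protease of oligodendrocytes that was listed at 0 in the embryonic hypothalamic libraries, and Scn4b, a sodium channel subunit (-3.41 and -7.34), were among the 8 genes with the largest higher values, and Klk6 was not called with edgeR. Astrocyte medians were -3.39 in hypothalamus and -3.72 in hindbrain. The dendritic genes Ddn (-5.31 in hypothalamus, 0.37 in hindbrain) and Nrgn (-4.56 and 0.33) were low in the embryonic hypothalamus and near 0 in the hindbrain difference, with tested differences between these of -5.68 ± 0.37 and -4.89 ± 0.35. Ddn was low in hindbrain at both stages, at 1.99 TPM in H and at most 2.97 TPM in NTS, DVC or PB. Its mean over the adult hypothalamic regions was 27.2 TPM, so the hindbrain value is that of a gene scarcely present there. Dynlrb2, of motile cilia (-5.32), and Clic6, of choroid plexus (-5.01), also differed. Their hindbrain differences were positive (1.89 and 2.90), and in H the choroid plexus genes summed to 630, 1196 and 2104 TPM against 26.4, 36.4 and 17.4 TPM in THy-PHy, and the part of that tissue in these values was not tested. The other genes at the top of the higher side were Tma7-ps (5.77), Gm11575 (4.70), Gm10163 (4.60) and Trmt112-ps2 (4.29), whose reads may be shared with related genes. The call of Tma7-ps was lost without H 1 or THy-PHy 1, that of Gm11575 without THy-PHy 1, where it stood at 58 TPM against 0 in THy-PHy 2 and 3, and that of Gm10163 without H 1, H 2, THy-PHy 1 or THy-PHy 3.

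**Figure D5:**
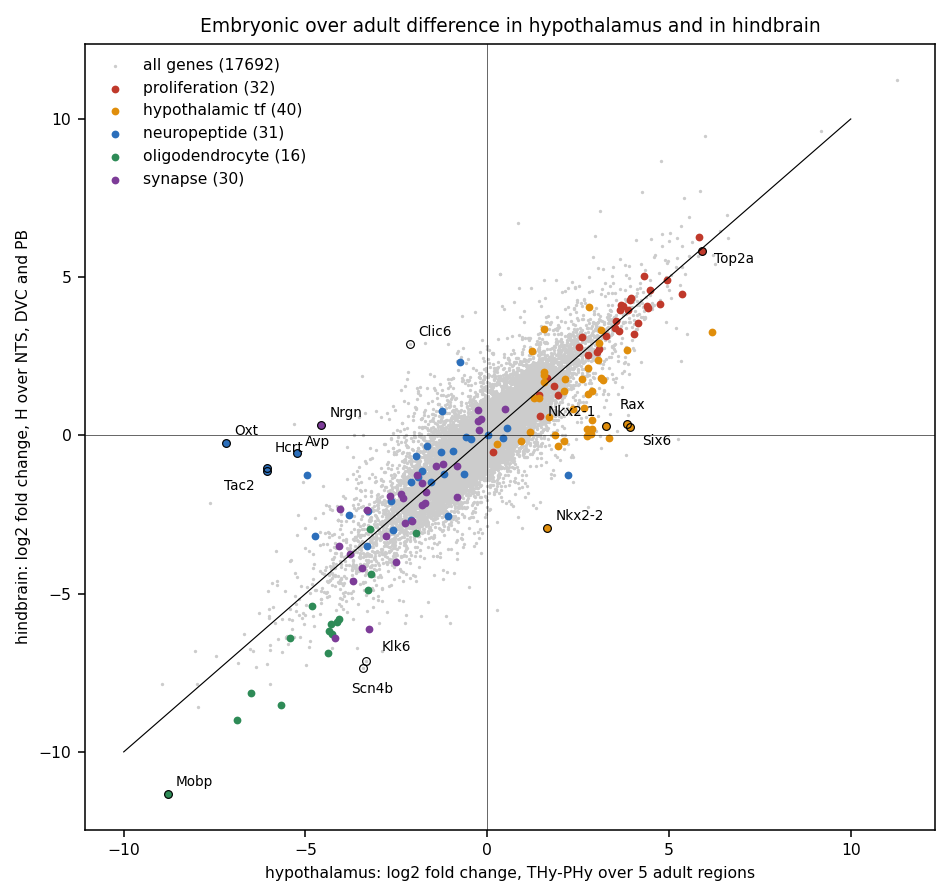
Log2 fold change, embryonic over adult, of each gene in hypothalamus (x axis) and in hindbrain (y axis), with genes of 5 lists in colour and the line of equal difference. Proliferation genes follow the line, Nkx2-1, Rax and Six6 lie near 0 in hindbrain, and Oxt, Hcrt and Tac2 lie far lower in hypothalamus than in hindbrain.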

How the data were processed

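RNA was sequenced in 70 mouse libraries, of which 17 were compared here, grouped by labelled region. The authors made reads with CASAVA 1.8.2, ran kallisto on GRCm38 transcripts and deposited an estimated count and a TPM per transcript, with TPM summed per gene for 34677 genes. Gene TPM was tested with limma 3.58.1 in R 4.3.3 (trend, Benjamini-Hochberg) on log2(TPM + 0.5), for genes with at least 1 TPM in at least 2 libraries. Calls needed both an adjusted p below 0.05 and more than 1 log2 unit of difference. The test was tested on simulated data. Alternatives used edgeR 4.0.16 and DESeq2 1.42.0 on estimated counts summed per gene (98.7% of 109282 transcripts matched), other pseudocounts, filters and scalings, and each library left out. The labels do not say whether equal replicate numbers mark the same animals, so the number was a block only in an alternative. The DMH libraries are numbered 1 to 4 in their descriptions, as used here, and 4 to 7 in their titles, and no block with the numbers of the titles was tried. Python 3.11.15, pandas 2.3.3, NumPy 2.4.6 and matplotlib 3.10.9 made tables and figures.

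The gene lists and their members were chosen with earlier results of these data known. Named from each list were the 3 called members with the largest log2 fold change in each direction, called members against the list's main direction and the member with the highest mean TPM. Members of the transcription factor, neuropeptide and maturation lists and defining markers could be named whether called or not. Over all genes, the 10 higher and 10 lower with the largest difference were named among separated genes with at least 10 TPM, and in the hindbrain contrast 8 in each direction. Members named because they missed the call, and a few others of the lists, were chosen after their values were seen. Some list members are counted in their list but not reported singly here.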

Additional observations from a re-analysis of the deposited data

Results flagged for a closer look

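Among 183 named genes tested for a DMH library far from the other 3, 4 had one, where chance gives about 5% of groups. DMH 2 stood apart for Grin2a (9.54 TPM) and Scn3a (18.6 TPM), and DMH 1 for Avp (18.8 TPM) and Crym (2.38 TPM). The 16 genes named in the test between territories had stage differences that differed between hypothalamus and hindbrain, on the log2 scale. The hypothalamic difference was lower for Oxt (-6.95), Ddn (-5.68), Dynlrb2 (-5.32), Hcrt (-5.03), Clic6 (-5.01), Tac2 (-4.95), Nrgn (-4.89) and Avp (-4.68). It was higher for Tma7-ps (5.77), Gm11575 (4.70), Gm10163 (4.60), Nkx2-2 (4.57), Trmt112-ps2 (4.29), Scn4b (3.93), Klk6 (3.79) and Six6 (3.69).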

How the results depend on the processing

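Of 195 called genes followed, 170 kept their call in each of up to 35 alternatives that tested them, 25 lost it in at least 1 and 0 reversed, while 6 genes not called became so. Of 54 list counts, 46 stayed within 1.5 times throughout. With no fold threshold, 5895 genes were higher and 6487 lower between the stages. Between embryonic regions, no filter on low values gave 33 higher and 14 lower, edgeR 91 lower, and the replicate number as a block 37 higher and 29 lower. As a block, the number gave 2830 higher and 3502 lower between the stages and 735 and 828 in the contrast with hindbrain. The labels do not tie numbers to animals; among adult hypothalamic libraries, deviations of equal number correlated at a median r of -0.01, and H and M were not examined in this way. Leaving out each library in turn gave 2617 to 2878 higher and 3325 to 3844 lower between the stages, 3808 to 4452 separated above and 4277 to 5350 below, 454 to 1775 higher and 746 to 1014 lower in the contrast with hindbrain, and 24 to 81 higher and 18 to 110 lower between embryonic regions. The extremes came without H 1, H 3 and THy-PHy 1 in the contrast with hindbrain and without THy-PHy 2, THy-PHy 3 and H 1 between embryonic regions. Of the limma calls between the stages, edgeR shared 87.6% of the higher and 90.1% of the lower. EdgeR called 3339 genes higher and 3742 lower, of which 74.1% and 84.9% were also called by limma. DESeq2 called 3442 higher and 3823 lower. For the contrast with hindbrain, edgeR called 702 higher and 1235 lower. Dividing TPM by TMM factors moved the median of all genes from -0.03 to -0.10. The cause was not tested for any of these.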
